A study of Homo sapiens with 4 samples.

Results

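The SR proteins and core spliceosome genes are 48 genes chosen by name, of 58735 genes counted, and each was matched to the counts by its Ensembl gene identifier in GENCODE release 29. Their RNA was measured by sequencing in 4 libraries of A549, an established human lung adenocarcinoma cell line: 2 libraries labelled wild type (shControl) and 2 labelled RALY knockdown (shRALY). Cells of both groups had been infected with a lentivirus, which carried a control short hairpin in one group and a hairpin against RALY in the other, and both groups are labelled day 2. They grew in RPMI medium with serum and antibiotics. The labels do not say how many hairpins against RALY were used, so effects of a hairpin and of the loss of RALY cannot be told apart, and nothing in the labels says that replicates 1 and 2 came from separate cultures. The p-values below therefore measure the spread between these libraries, which may be technical. RALY belongs to the hnRNP proteins, which bind RNA in the nucleus, and the comparison asks how the RNA levels of the splicing machinery differ once RALY RNA is reduced.

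The spliceosome removes introns from pre-mRNA. It is assembled on each intron from the U1, U2, U4, U5 and U6 small nuclear ribonucleoproteins (snRNPs), each an RNA with its proteins: U1 pairs with the 5′ splice site, the SF1 and U2AF proteins mark the branch point and the 3′ splice site, U2 replaces SF1 at the branch point, and the U4/U6.U5 tri-snRNP then joins and is remodelled into the catalytic enzyme. SR proteins carry RNA-recognition motifs and a tail rich in arginine and serine. They bind exonic sequences and help to recruit U1 and U2AF to nearby splice sites. Many SR genes also limit their own RNA through poison exons, whose inclusion sends the transcript to decay.

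RALY itself (ENSG00000125970, chr20:33993646-34108308, plus strand, hg38) was counted at 123 and 133 CPM (a read count normalised to the scaled library size) in shControl 1 and 2, and at 40.9 and 41.5 CPM in shRALY 1 and 2. The level in shRALY was 32.1% of that in shControl, a log2 fold change of -1.64 with a standard error (SE) of 0.11 (edgeR quasi-likelihood test with Benjamini-Hochberg adjustment, adjusted p = 5.85e-11). Library totals ran from 16745818 to 18632787 counts. Of 15912 genes tested, 3245 (20.4%) were called lower and 3274 (20.6%) higher in shRALY at an adjusted p under 0.05, and the median log2 fold change was -0.01. The lower count was 1897 without shRALY 1 and 1980 without shRALY 2, and the higher count 2040 without shRALY 2. The cell type is labelled alveolar basal epithelial. The epithelial keratins KRT8 (means of 3720 and 3850 CPM in shControl and shRALY) and KRT18 (1700 and 1600 CPM) were abundant and did not pass the test. The epithelial marker EPCAM was low, with means of 2.68 CPM in shControl and 3.24 CPM in shRALY, and did not pass either. The surfactant genes SFTPA1, SFTPB and SFTPC and the alveolar factor NKX2-1 had 0 to 4 counts per library, whereas the fifth alveolar marker, ABCA3, had means of 87.7 CPM in shControl and 95.4 CPM in shRALY. The basal keratins KRT5 and KRT14 had 0 to 6. Summed levels of 7 immune markers were 9.55 and 11.5 CPM in the shControl libraries and 11.5 and 8.56 CPM in the shRALY libraries, with CD3E and LYZ at 0 counts in all 4 libraries. Other epithelial markers did move: KRT19 (log2 fold change 1.71) and CDH1 (0.47) rose and the basal factor TP63 (-1.17) fell, and their part in the splicing results was not tested. The 5 fibroblast markers summed to 18.9 and 18.4 CPM in shControl and 14.0 and 16.5 CPM in shRALY. The 3 endothelial markers summed to 0.50 and 0.82 CPM in shControl and 0.05 and 0.18 CPM in shRALY.

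All 48 genes passed the filter on low counts and were tested. In shRALY 27 of them (56.2%) were lower and 0 were higher, beside 20.4% and 20.6% of all tested genes, and 21 did not pass. At an unadjusted p under 0.05 the counts were 31 lower and 0 higher, and DESeq2 also called 27 lower and 0 higher. Over all tested genes DESeq2 called 2628 lower and 2837 higher. Leaving out shRALY 1 left 17 lower, and leaving out shRALY 2 left 18. Both shRALY libraries lay below both shControl libraries for 38 of the 48 genes (79.2%, beside 35.4% of all tested genes) and above them for 2 (4.17%, beside 34.2%), while 8 overlapped. The median log2 fold change was -0.41, with a range from -1.75 to 0.14, and 41 values were negative. SF3B6, SNRPA and PRPF3, at 0.01 to 0.04, turned negative on library size alone. Most changes were moderate, since only SRSF1 and SRSF3 fell by 2-fold or more. Summed over the 48 genes, the level was 8043 and 8389 CPM in the shControl libraries and 5913 and 6051 CPM in the shRALY libraries. In bulk RNA, fewer cells of a kind and less RNA per cell cannot be told apart.

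**Figure D1:**
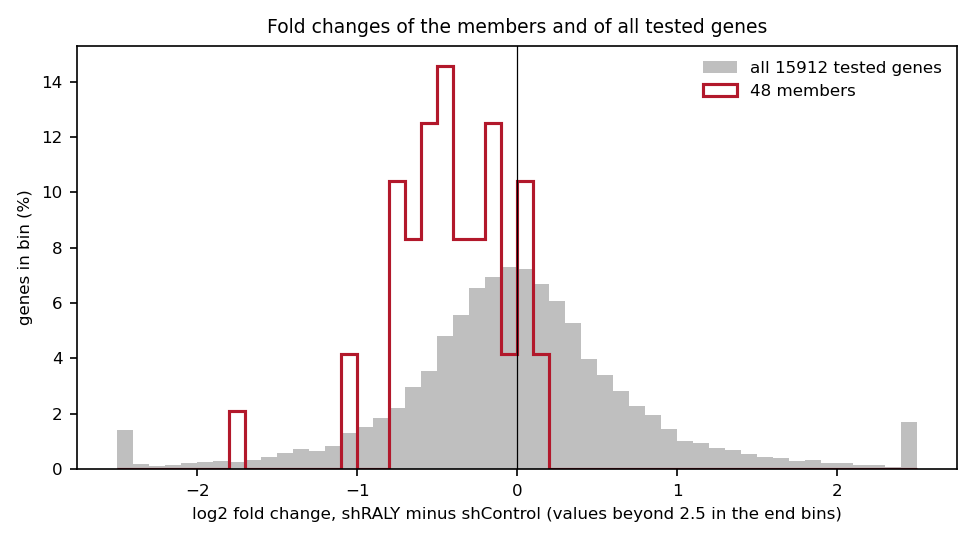
Histogram of log2 fold changes (shRALY minus shControl, x axis) as the percentage of genes in each bin (y axis), for the 48 SR protein and core spliceosome genes (red outline) and all 15912 tested genes (grey). The 48 genes lie mostly between -0.8 and 0.2 with a median of -0.41, whereas the median of all tested genes is -0.01.

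**Figure D2:**
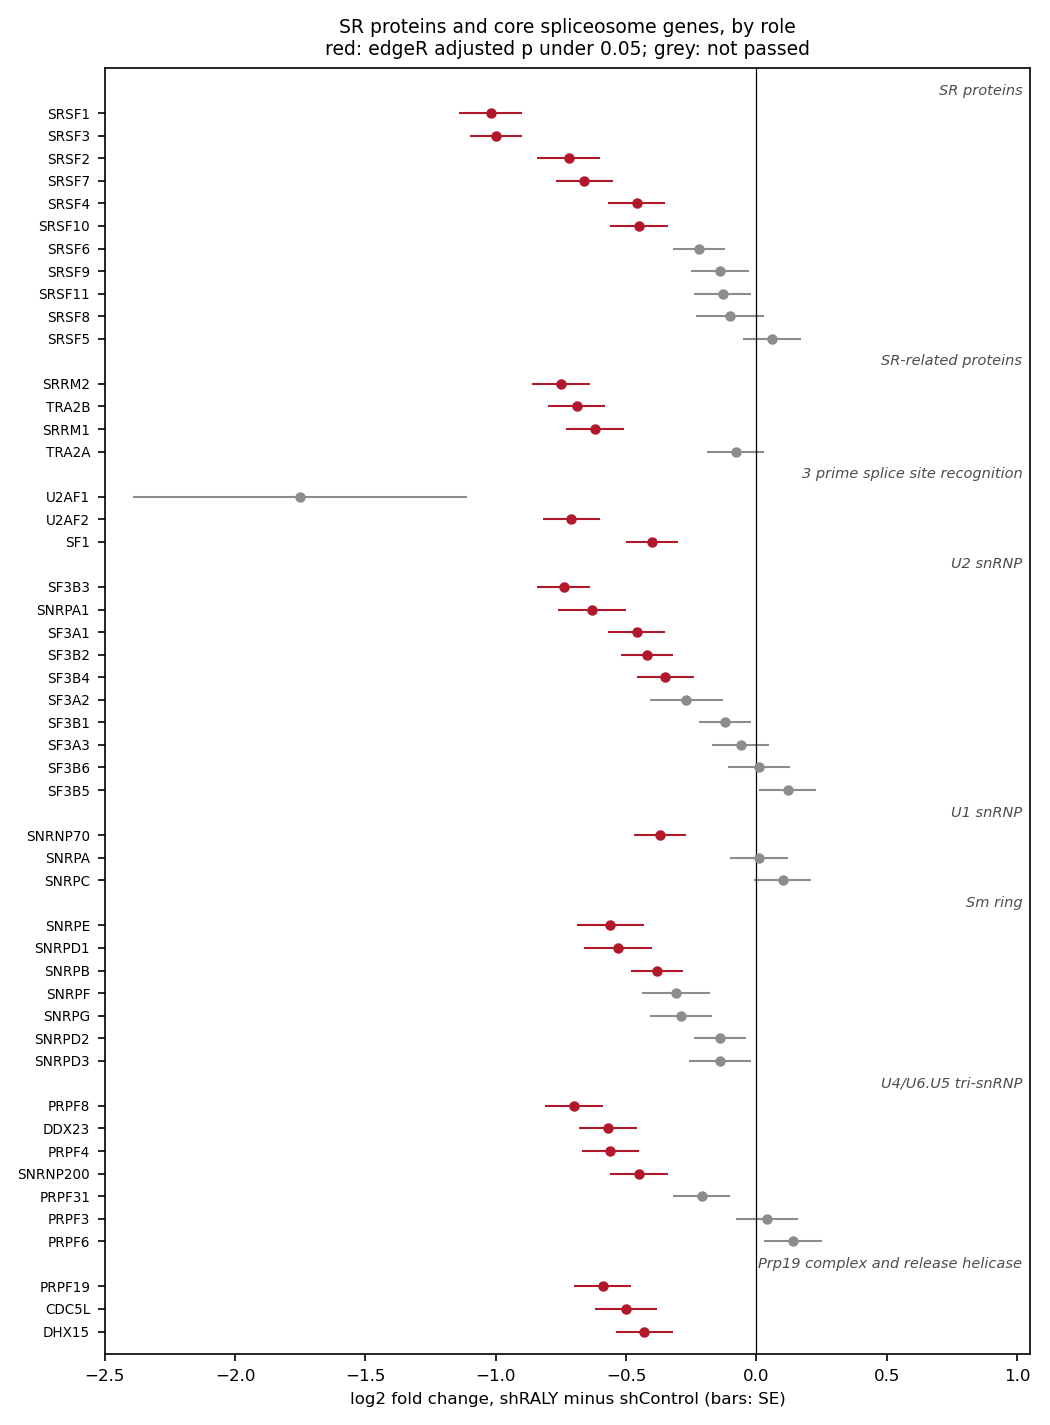
Log2 fold change of each of the 48 genes (points) with its SE (bars), grouped by role; red points passed the edgeR test at an adjusted p under 0.05 and grey points did not. All 27 red points lie left of 0, and the wide bar belongs to U2AF1, which has few counts and a near-identical copy, U2AF1L5.

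Among the 11 SR proteins, 6 fell and 5 did not pass, with a median log2 fold change of -0.45. SRSF3, one of the smallest SR proteins and a known regulator of alternative exons and mRNA export, had 332 and 305 CPM in shControl and 158 and 160 CPM in shRALY. It fell 2.0-fold (log2 fold change -1.0, SE 0.10, edgeR adjusted p = 4.97e-08). SRSF1, the founding SR protein, which promotes exon inclusion and acts as an oncogene when overexpressed, had 120 and 102 CPM in shControl and 54.6 and 55.1 CPM in shRALY. It fell 2.02-fold (log2 fold change -1.02, SE 0.12, adjusted p = 2.19e-07). For both genes the shRALY libraries were close to each other and far below the lower shControl library. SRSF7, a close relative of SRSF3 with a zinc knuckle, went from 182 and 169 CPM to 116 and 105 CPM, a 1.59-fold fall (log2 fold change -0.66, SE 0.11, adjusted p = 3.02e-05). SRSF2, which binds exonic enhancers and is recurrently mutated in myeloid neoplasms, had 259 and 206 CPM in shControl and 153 and 130 CPM in shRALY (log2 fold change -0.72, SE 0.12, adjusted p = 3.9e-05). All 4 of these calls were kept whichever library was left out.

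The calls of the other 2 SR proteins that fell were lost when either shRALY library was left out, although their shRALY libraries were close to each other. SRSF4 had 79.7 and 79.1 CPM in shControl and 59.2 and 56.1 CPM in shRALY (log2 fold change -0.46, edgeR adjusted p = 0.00196). Without shRALY 1 its adjusted p was 0.0553, and without shRALY 2 it was 0.123. SRSF10, whose dephosphorylated form is known to repress splicing after heat shock, had 147 and 125 CPM in shControl and 99.8 and 99.1 CPM in shRALY (log2 fold change -0.45, adjusted p = 0.00242). Its adjusted p was 0.0779 without shRALY 1 and 0.0896 without shRALY 2. The 5 SR proteins that did not pass had log2 fold changes of -0.22 (SRSF6), -0.14 (SRSF9), -0.13 (SRSF11), -0.10 (SRSF8) and 0.06 (SRSF5). SRSF5 was the only SR protein whose libraries overlapped between groups, with 123 and 114 CPM in shControl and 126 and 121 CPM in shRALY. Values within the family ranged widely: SRSF3 and SRSF6, which had similar shControl levels per length (44.7 and 42.2 RPKM, CPM per kilobase of exon), had log2 fold changes of -1.0 and -0.22, a difference that was not tested.

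Counts of several SR genes share sequence with other annotated genes, and the sources used here give neither a strand nor a multi-mapping setting for the counting. For SRSF1, 59% of the 50-base words of the longest transcript also occur in another gene's transcript, and 56.6% of its exonic bases overlap another gene on the same strand. For SRSF2, 36.7% of exonic bases overlap genes on the opposite strand, among them MFSD11. For SRSF9, every word of the longest transcript occurs in a transcript of GATC, and 46.2% of its exonic bases overlap that gene on the opposite strand. The values of these 3 genes are therefore uncertain, whereas SRSF3 shared 0.863% of its words and SRSF7 shared 0.

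Of the 4 SR-related proteins, 3 fell, with a median log2 fold change of -0.66. SRRM2, a large scaffold of nuclear speckles, had 615 and 773 CPM in shControl and 385 and 440 CPM in shRALY. It fell 1.68-fold (log2 fold change -0.75, SE 0.11, edgeR adjusted p = 1.19e-05), and its 2 shControl libraries differed by more than its 2 shRALY libraries. TRA2B, which activates exons with purine-rich enhancers, went from 177 and 159 CPM to 107 and 101 CPM (log2 fold change -0.69, SE 0.11, adjusted p = 1.94e-05). SRRM1, a splicing coactivator that bridges SR proteins and snRNPs, went from 117 and 129 CPM to 77.4 and 82.1 CPM (log2 fold change -0.62, SE 0.11, adjusted p = 8.74e-05), though 22.5% of its transcript words occur in other genes. TRA2A, the paralog of TRA2B, had 64.8 and 59.1 CPM in shControl and 59.6 and 57.8 CPM in shRALY, which overlap (log2 fold change -0.08, adjusted p = 0.622). The difference between the responses of TRA2A and TRA2B was not tested.

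**Figure D3:**
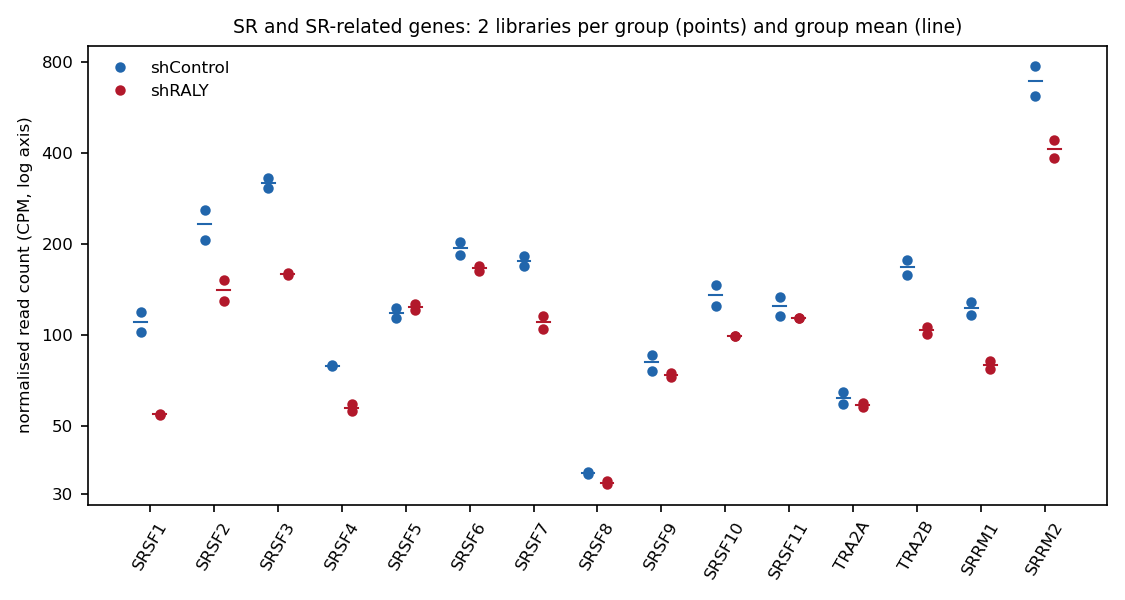
Normalised read count (CPM, log axis) of the 11 SR and 4 SR-related genes in each of the 2 shControl (blue) and 2 shRALY (red) libraries, with the group mean as a line. Points of the 2 groups lie apart for SRSF1, SRSF3, SRSF7, TRA2B and SRRM2, and overlap for SRSF5 and TRA2A.

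Of the 3 genes of 3′ splice site recognition, 2 fell. U2AF2, the large U2AF subunit that binds the polypyrimidine tract, had 323 and 385 CPM in shControl and 210 and 224 CPM in shRALY. It fell 1.63-fold (log2 fold change -0.71, SE 0.11, edgeR adjusted p = 1.47e-05), with both shRALY libraries below both shControl libraries. SF1, which recognises the branch point before U2 does, went from 285 and 309 CPM to 226 and 224 CPM (log2 fold change -0.40, SE 0.10, adjusted p = 0.00311). Leaving out shRALY 1 raised the adjusted p of SF1 to 0.116, and leaving out shRALY 2 raised it to 0.129.

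U2AF1, the small subunit that reads the AG at the intron end, cannot be measured alone in these counts. A second annotated gene, U2AF1L5 (ENSG00000275895, chr21:6484623-6499261, minus strand, hg38), holds 98.1% of the 50-base words of its longest transcript. Their coding sequences of 720 bases differ at 0 positions, and the first 100 coding bases, in GENCODE release 29, show why no read within them can be assigned to one gene.
U2AF1: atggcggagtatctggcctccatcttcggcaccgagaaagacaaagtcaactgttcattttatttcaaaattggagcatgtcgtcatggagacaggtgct
U2AF1L5: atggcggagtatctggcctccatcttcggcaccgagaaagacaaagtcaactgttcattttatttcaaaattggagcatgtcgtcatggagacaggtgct

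U2AF1 received 238 and 77 counts in shControl 1 and 2 and 66 and 27 counts in shRALY 1 and 2. U2AF1L5 received 137 and 111 counts in shControl and 94 and 313 counts in shRALY. The share of the pair's counts assigned to U2AF1 was thus 63.5% and 41.0% in shControl and 41.2% and 7.94% in shRALY, so libraries of one group differed by about as much as the groups did. On its own row U2AF1 had a log2 fold change of -1.75 with a wide SE of 0.64 (edgeR adjusted p = 0.0853). That value passed the test under several other settings. Among them were no filter on low counts (edgeR adjusted p = 3.35e-06), no robust estimation (edgeR adjusted p = 0.000678) and most of the fits that left 1 library out. When both genes were summed, the shControl libraries gave 15.9 ± 7.0 CPM and the shRALY libraries 14.8 ± 8.56 CPM (SD, n = 2 libraries each). The summed log2 fold change was -0.13 (SE 0.60, edgeR adjusted p = 0.898), with overlapping groups. As the handling of multi-mapping reads was not given, the sum may lack reads that match both genes and may not give the pair's level. On its own row U2AF1 had 0.801 RPKM in shControl, beside 85.9 RPKM for U2AF2, and the cause was not tested.

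**Figure D4:**
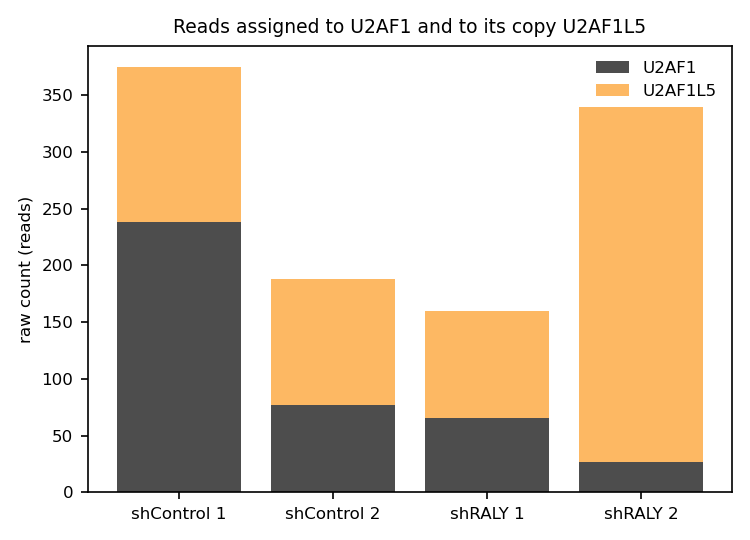
Raw counts (reads, y axis) assigned to U2AF1 (dark) and to its copy U2AF1L5 (orange), stacked for each of the 4 libraries. The sums of 375, 188, 160 and 340 counts overlap between groups, and shRALY 2 has 7.94% of its counts on U2AF1.

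In the U2 snRNP, which selects the branch point, 5 of 10 genes fell and 5 did not pass (median log2 fold change -0.31). SF3B3, a scaffold of the SF3b complex, had 309 and 310 CPM in shControl and 186 and 185 CPM in shRALY, so libraries within a group were nearly equal. It fell 1.67-fold (log2 fold change -0.74, SE 0.10, edgeR adjusted p = 3.17e-06). SNRPA1, the U2 A′ protein that binds U2 RNA, went from 44.3 and 43.9 CPM to 30.03 and 26.8 CPM (log2 fold change -0.63, SE 0.13, adjusted p = 0.000319). SF3A1, which contacts both U2 RNA and U1, went from 116 and 122 CPM to 83.0 and 89.7 CPM (log2 fold change -0.46, SE 0.11, adjusted p = 0.00172), but did not pass without shRALY 1 (adjusted p = 0.133). SF3B2 (log2 fold change -0.42, adjusted p = 0.00237) and SF3B4 (-0.35, adjusted p = 0.0124) fell as well. Neither passed without shRALY 1 (adjusted p of 0.11 and 0.194) or without shRALY 2 (0.101 and 0.225).

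SF3B1, the SF3b subunit that clamps the branch helix and the most often mutated splicing factor in myelodysplasia, had 372 and 343 CPM in shControl and 326 and 331 CPM in shRALY. Its groups did not overlap, yet the log2 fold change was -0.12 and did not pass (edgeR adjusted p = 0.36). The other U2 genes that did not pass had log2 fold changes of -0.27 (SF3A2), -0.06 (SF3A3), 0.01 (SF3B6) and 0.12 (SF3B5). SF3B5, a small SF3b subunit, had 71.0 and 73.0 CPM in shControl and 79.9 and 76.9 CPM in shRALY. It was 1 of the 2 genes with both shRALY libraries above both shControl libraries. Within SF3b alone the log2 fold changes ran from -0.74 to 0.12, and the differences between its subunits were not tested.

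The U1 snRNP, which binds the 5′ splice site, had a median log2 fold change of 0.01 over 3 proteins. SNRNP70, the U1-70K protein that SR proteins contact, went from 290 and 328 CPM to 243 and 235 CPM (log2 fold change -0.37, SE 0.10, edgeR adjusted p = 0.0063). The call was lost without shRALY 1 (adjusted p = 0.124) and without shRALY 2 (adjusted p = 0.195). SNRPA, which binds a loop of U1 RNA, had 86.5 and 92.8 CPM in shControl and 90.8 and 89.3 CPM in shRALY (log2 fold change 0.01, adjusted p = 0.975). SNRPC, which stabilises the pairing of U1 with the 5′ splice site, had 74.3 and 65.9 CPM in shControl and 77.1 and 72.8 CPM in shRALY (log2 fold change 0.10, adjusted p = 0.532). For SNRPA and SNRPC the groups overlapped.

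The 7 Sm proteins form the ring around the U1, U2, U4 and U5 RNAs. All 7 had both shRALY libraries below both shControl libraries, 3 passed the test, and the median log2 fold change was -0.31. SNRPE went from 40.6 and 36.0 CPM to 25.4 and 26.6 CPM (log2 fold change -0.56, SE 0.13, edgeR adjusted p = 0.00144; 0.0578 without shRALY 1). SNRPD1 went from 66.3 and 50.02 CPM to 40.6 and 39.9 CPM (log2 fold change -0.53, SE 0.13, adjusted p = 0.00247; 0.0553 without shRALY 2). SNRPB went from 295 and 307 CPM to 243 and 220 CPM (log2 fold change -0.38, SE 0.10, adjusted p = 0.00513), and had the highest shControl level per length of the 48 genes, 235 RPKM. Its adjusted p was 0.0707 without shRALY 1 and 0.264 without shRALY 2. The 4 others had log2 fold changes of -0.31 (SNRPF, adjusted p = 0.0684), -0.29 (SNRPG, adjusted p = 0.0668), -0.14 (SNRPD2) and -0.14 (SNRPD3). SNRPN, a paralog of SNRPB, was low and did not pass, with 6.34 ± 2.41 CPM in shControl and 8.28 ± 1.07 CPM in shRALY (SD, n = 2 libraries each). Its level is uncertain, since 34% of its transcript words occur in other genes and 33.6% of its exonic bases overlap genes on the same strand.

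Of the 7 tri-snRNP proteins, 4 fell and 3 did not pass (median log2 fold change -0.45). PRPF8, the protein at the catalytic centre, had 709 and 875 CPM in shControl and 451 and 524 CPM in shRALY. It fell 1.62-fold (log2 fold change -0.70, SE 0.11, edgeR adjusted p = 2.43e-05). DDX23, the helicase that helps release U1 from the 5′ splice site, went from 180 and 197 CPM to 123 and 131 CPM (log2 fold change -0.57, SE 0.11, adjusted p = 0.000154). PRPF4, a U4/U6 protein, went from 88.1 and 97.9 CPM to 64.8 and 61.5 CPM (log2 fold change -0.56, SE 0.11, adjusted p = 0.000365). These 3 calls were kept whichever library was left out. SNRNP200, the helicase that unwinds U4 from U6, went from 464 and 572 CPM to 349 and 409 CPM (log2 fold change -0.45, SE 0.11, adjusted p = 0.0028), and did not pass without shRALY 1 (adjusted p = 0.193).

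PRPF31, PRPF3 and PRPF6, which help to hold the U4/U6 and U5 particles together, did not pass. PRPF31 had 77.6 and 88.2 CPM in shControl and 72.2 and 70.7 CPM in shRALY (log2 fold change -0.21, edgeR adjusted p = 0.14), and 32% of its exonic bases overlap genes on the opposite strand. PRPF3 had overlapping groups (log2 fold change 0.04, adjusted p = 0.81). PRPF6 had 108 and 114 CPM in shControl and 119 and 126 CPM in shRALY, the highest log2 fold change of the 48 genes at 0.14 (adjusted p = 0.324). The 3 Prp19 complex and release genes all fell. PRPF19, the ubiquitin ligase that gives the complex its name, went from 167 and 178 CPM to 111 and 119 CPM (log2 fold change -0.59, SE 0.11, adjusted p = 0.000119). CDC5L, its partner with Myb domains, went from 59.0 and 49.96 CPM to 39.2 and 37.7 CPM (log2 fold change -0.50, SE 0.12, adjusted p = 0.0022; 0.0858 without shRALY 2). DHX15, the helicase that takes spent spliceosomes apart, went from 226 and 194 CPM to 160 and 150 CPM (log2 fold change -0.43, SE 0.11, adjusted p = 0.00265). It was lost without shRALY 1 (adjusted p = 0.0557) and without shRALY 2 (adjusted p = 0.139).

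Genes with longer transcripts had lower log2 fold changes among the 48. The rank correlation of log2 fold change with the length of the longest annotated transcript was -0.46 across the 48 genes (-0.44 across 47 without U2AF1), and -0.05 across all 15912 tested genes. These are correlations across genes of the same 4 libraries, and genes are not independent replicates. Of the 24 genes with the longer transcripts (3117 to 9720 bases), 18 fell, with a median log2 fold change of -0.48. Of the 24 with the shorter transcripts (693 to 3044 bases), 9 fell, with a median of -0.24. Of all tested genes of any length 20.4% were called lower. Shares of all tested genes by length were not computed, so these 2 counts have no background of like length. The difference between replicates 2 and 1 had rank correlations with length of 0.07 in shControl and 0.12 in shRALY over the same genes. Over all tested genes these were 0.03 and 0.15, so the shRALY replicates differed with length more than the groups did (-0.05). Over the 48 genes the order was the other way, with 0.12 between shRALY replicates and -0.46 between groups. With GC content and transcript length as a correction, chosen after seeing the data, 34 genes were lower and 0 higher. Calls over all tested genes rose with it as well, to 4010 lower and 3923 higher, from 3245 and 3274. The rank correlation of log2 fold change with shControl CPM on a log10 scale was -0.34 for the 48 genes and -0.12 for all tested genes.

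**Figure D5:**
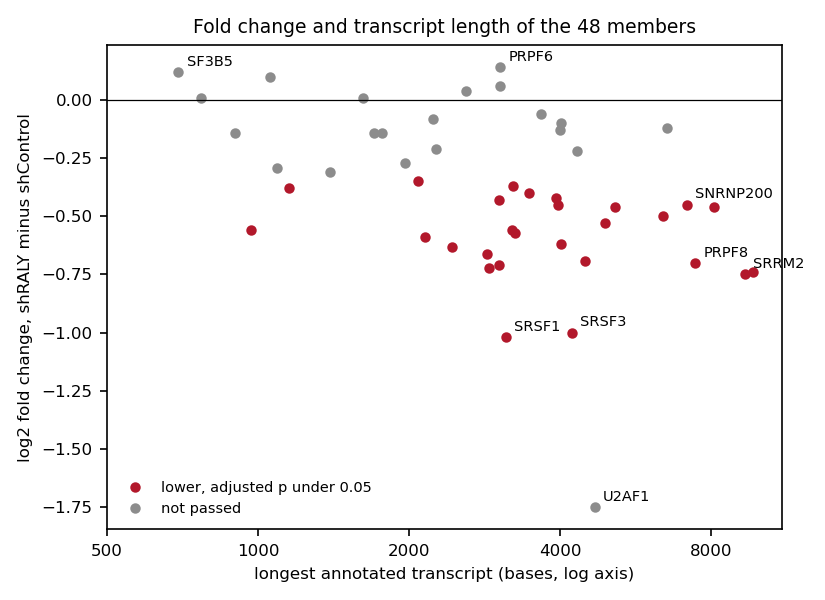
Log2 fold change (y axis) against the length of the longest annotated transcript (bases, log axis) for the 48 genes; red points passed the edgeR test and grey points did not. The shortest transcript, of SF3B5, lies above 0. Among long ones, PRPF8 and SRRM2 lie near -0.7, SNRNP200 at -0.45 and SF3B1 at -0.12.

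RefSeq promoters (GRCh38.p14, from 250 bases before to 50 bases after the start) were found for 43 of the 48 genes and searched on both strands for 7 short motifs, each counted by itself even where matches of different motifs overlap. Some genes had several promoters, and a gene was counted once if any of its promoters held a match. The ETS motif CCGGAAGT stood in a promoter of 13 of 43 genes (30.2%), compared with 9.44% of 10855 tested genes and 4.95% of all 27305 genes with a promoter. It was present in 8 of 24 genes that fell and in 5 of 19 that did not pass. E2F (TTTNNCGC) stood in 7 of 43 (16.3%, against 12.6% of tested genes), NRF1 (GCATGCGC) in 4 (9.3% against 6.23%) and YY1 (AAGATGGCG) in 3 (6.98% against 4.46%). The share was lower than among tested genes for the E-box CACGTG, in 1 gene (2.33% against 12.4%), for NF-Y (CCAAT), in 15 (34.9% against 42.5%), and for SP1 (GGGCGG), in 26 (60.5% against 76.0%). Within the 100 bases before the start, ETS matches stood in 8 of 43 genes (18.6%) and in 5.98% of tested genes. A match is a description of these letters and not a shown site. The following windows of 30 bases, from some of the 8 genes with a match within those 100 bases, show the match in capitals. They cover 3 genes that fell and 2 that did not, so the same letters stand in front of both kinds.
U2AF2, fell, chr19:55654994-55655023, plus strand: gccggcggcggCCGGAAGTagccgaagcca
SNRPB, fell, chr20:2470812-2470841, minus strand: agtgagctggaCCGGAAGTaggtttctacc
SF3A1, fell, chr22:30356925-30356954, minus strand: aggggacggtcCCGGAAGTgcgccagtcgt
SRSF5, did not pass, chr14:69767074-69767103, plus strand: caggggcgtccCCGGAAGTgacgtaggacg
SF3A2, did not pass, chr19:2236804-2236833, plus strand: tctcatttgccCCGGAAGTgctttctttgc

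Other genes of the splicing machinery were read from 8 further lists of 102 genes in all, of which 39 (38.2%) fell and 4 (3.92%) rose, beside 20.4% and 20.6% of all tested genes, with a median log2 fold change of -0.22. Without shRALY 1 the counts were 20 lower and 2 higher, without shRALY 2 they were 18 and 1, and without shControl 1 the higher count was 9. The 48 genes above had 56.2% lower and a median of -0.41, and this difference between lists was not tested. The LSm ring, which binds the 3′ end of U6 RNA, had 5 of 7 genes lower (median -0.57), led by LSM4 (log2 fold change -0.65, edgeR adjusted p = 0.000138) and LSM2 (-0.72, adjusted p = 0.000426). Other tri-snRNP and B complex factors had 9 of 16 lower (median -0.43). Among these the kinase PRPF4B went from 116 and 105 CPM to 46.7 and 49.0 CPM (log2 fold change -1.21, adjusted p = 1.19e-08), and the U5 protein TXNL4A had a log2 fold change of -1.04 (adjusted p = 1.05e-06). Other U1 and U2 factors had 8 of 18 lower (median -0.27), with CHERP, a U2-associated protein, at -1.09 (adjusted p = 6.64e-07) and the helicase DDX46 at -0.83 (adjusted p = 2.41e-06). Exon junction and cap-binding genes had 5 of 10 lower (median -0.26), with PNN at -0.65 (adjusted p = 6.02e-05) and NCBP1, the large cap-binding subunit, at -0.44 (adjusted p = 0.00269). The call of NCBP1 was lost without shRALY 1 (adjusted p = 0.0875) and without shRALY 2 (adjusted p = 0.101), and the calls of LSM4, LSM2, PRPF4B, TXNL4A, CHERP, DDX46 and PNN were kept whichever library was left out.

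The 21 other Prp19 complex and catalytic step factors had the median closest to 0 of the 8 lists (log2 fold change -0.01), with 4 lower and 0 higher, a lower share near the 20.4% of all tested genes. XAB2 (-0.44, edgeR adjusted p = 0.00429) and the helicase DHX38 (-0.35, adjusted p = 0.0176) had the smallest adjusted p there. XAB2 lost the call without shRALY 1 (adjusted p = 0.105) and without shRALY 2 (adjusted p = 0.121). DHX38 lost it without shControl 2 (adjusted p = 0.0698), shRALY 1 (adjusted p = 0.237) or shRALY 2 (adjusted p = 0.185). At an unadjusted p under 0.05, 6 of the 21 were lower and 0 higher, and DESeq2 called 2 lower and 0 higher.

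The lower shares of the snRNP assembly and minor spliceosome lists were also near the 20.4% of all tested genes. Of 15 snRNP assembly genes 4 fell, with the SMN complex members GEMIN4 at -1.03 (edgeR adjusted p = 1.11e-07) and GEMIN6 at -0.79 (adjusted p = 0.000168), and GEMIN7 rose (0.37, adjusted p = 0.0486). Of 8 minor spliceosome genes 2 fell, with SNRNP25, a U11/U12 protein, at -1.27 (adjusted p = 1.3e-07), and ZRSR2, which reads the 3′ splice site of minor introns, rose (0.57, adjusted p = 0.0262). Of 8 kinases of SR proteins 3 fell, PRPF4B (named above, as it is in both lists) and DYRK1A (-0.41, adjusted p = 0.0131) with the smallest adjusted p. DYRK1A lost the call without shControl 2 (adjusted p = 0.0891), shRALY 1 (0.18) or shRALY 2 (0.127). The other two that changed rose: CLK1, a nuclear SR kinase, went from 41.7 and 33.2 CPM to 54.1 and 46.3 CPM (log2 fold change 0.42, adjusted p = 0.0137), and SRPK2, a mainly cytoplasmic one, from 68.5 and 62.9 CPM to 80.4 and 87.5 CPM (0.35, adjusted p = 0.0155). None of these 4 rises was kept whichever library was left out. CLK1 lost the call without shRALY 1 (edgeR adjusted p = 0.278), and SRPK2 lost it without shRALY 1 (0.0999) or shRALY 2 (0.275). GEMIN7 lost it without shControl 2 (adjusted p = 0.0588), shRALY 1 (0.209) or shRALY 2 (0.268), and ZRSR2 without shControl 2 (0.0763) or shRALY 2 (0.288). DESeq2 did not call GEMIN7 (adjusted p = 0.0934) or ZRSR2 (adjusted p = 0.0666). ZRSR2 shares 25% of its words with other genes.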

How the data were processed

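RNA sequencing counts were read for 2 shControl and 2 shRALY libraries of A549 cells, grouped by sample title. The authors deposited raw counts for Ensembl genes in a separate file for each library, without normalisation. Per the labels' protocols, RNA was selected on poly-T beads and made into TruSeq libraries. The submitters' processing notes name featureCounts 1.5.0-p3, HISAT2 2.0.5, DESeq2 1.20.0 and the hg38 build. Which tool did what, the strand setting and the handling of multi-mapping reads were not given in the sources used. All 58735 identifiers matched GENCODE release 29. A single line that used a space in place of a tab was read like the rest.

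The test was run in edgeR 4.0.16 (R 4.3.3): filterByExpr (minimum count 10, minimum total 15) kept 15912 genes with 99.83% of counts, TMM scaled the libraries (factors 0.974 to 1.02), and the robust quasi-likelihood F-test compared the groups with 2 residual degrees of freedom. The p-values were adjusted by Benjamini-Hochberg over all tested genes, at a threshold of 0.05. The scripts were tested on simulated data. At these depths 3 counts equal 0.161 to 0.179 CPM, and such a floor covers counting error only. RPKM is CPM per kilobase of merged exon. SE is the absolute log2 fold change over the square root of F.

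The members, the other gene lists, the motifs and the tests were chosen with earlier results of these data known. The 3 members of each role with the smallest adjusted p were described in full, with any member whose transcript words or exons were over 20% shared, and the 2 with the smallest adjusted p of each other list; CLK1, SRPK2 and GEMIN7 were added after their values were seen, as was SRSF5 with the further members given by library. Alternatives were library size alone, DESeq2 1.42.0, RLE size factors, no filter, a 10 CPM filter in 2 libraries, no robust estimation, the replicate block, each library left out, protein-coding genes alone and glmTreat at 1.2-fold. The correction for GC content and length and the sum of U2AF1 with U2AF1L5 were chosen after seeing the data.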

Additional observations from a re-analysis of the deposited data

How the results depend on the processing

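No value that passed the test reversed in direction under any alternative run. Of the members near 0 that did not pass, SF3B6 (0.01) ranged down to -0.12 without shControl 2, SNRPA (0.01) to -0.06 with the GC content and length correction, and PRPF3 (0.04) to -0.05 without shRALY 2. The number of the 48 genes lower in shRALY was 27, and ranged from 19 (glmTreat against a 1.2-fold change) to 34 (GC content and length correction) where all 4 libraries were kept, always with 0 higher. Over all tested genes, glmTreat gave 2183 lower and 2317 higher, and the GC content and length correction 4010 lower and 3923 higher. Leaving out 1 library in turn gave 17 to 32 lower and 0 higher, with 17 without shRALY 1 and 18 without shRALY 2, and a median log2 fold change of -0.41 to -0.37. Of the 27 calls, 14 were kept in all 4 of those fits and 13 were lost in at least 1. Calls over all tested genes ranged from 1897 to 3499 lower and 2040 to 3559 higher when 1 library was left out. On library size alone, with no TMM scaling, 3706 genes were lower and 2894 higher, and 30 of the 48 were lower. The other 102 splicing genes had 39 lower and 4 higher, with 18 to 44 lower, 1 to 9 higher and a median of -0.24 to -0.14 when 1 library was left out. For them glmTreat gave 19 lower and 0 higher, DESeq2 gave 2 higher, and the GC content and length correction gave 7 higher. RALY ranged from -1.70 to -1.57. The causes of these shifts were not tested. The fits that leave 1 library out hold fewer libraries, and in them the lone library is assumed to vary like the other group.

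With the replicate number as a block, 31 of the 48 genes, 44 of the other splicing genes and 3619 of all genes were lower, and 3639 of all genes higher. The numbers are not known to pair the samples: the differences of replicates 1 and 2 correlated between groups with r = 0.105 over 14251 genes, which rests on 2 pairs. U2AF1, at 66 and 27 counts in shRALY, had the fewest counts of the 48 genes. Its SE of 0.64 was still 0.60 after its counts were summed with those of U2AF1L5, and the part of depth in this was not tested. The filter of 10 CPM removed U2AF1 and left 47 members.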
